A study of Mus musculus with 8 samples.

Results

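FOXL2 knockdown was examined over both treatments at once, by setting the 4 arrays labelled FOXL2 siRNA against the 4 labelled control siRNA in mouse primary follicular cells. Each array labelled FOXL2 siRNA was paired with the array labelled control siRNA of the same treatment and replicate number, which gave 4 pairs and used all 8 arrays of the series. The pairs carry 2 replicate numbers, so a vehicle and an E2 pair of the same number may not be independent. The cells came from preantral follicles of 8-week-old female Swiss mice, pooled from 5 mice for each replicate. They were dispersed after an overnight culture of the follicles, grown as monolayers to 9 days of culture in all, and are described in the labels as mostly granulosa cells. Control and FOXL2 siRNA cultures alike were transfected with 12 pmol of an siRNA pool together with a DsRed plasmid, in hormone-free medium, after androstenedione had been withdrawn. Each siRNA was followed either by vehicle or by 100 nM estradiol (E2), added 10 h before lysis, which made 4 groups of 2 arrays. Every level below is the log2 of a gene's signal after scaling by the 75th percentile of its array, and every change is the mean difference, FOXL2 siRNA minus control siRNA, over the 4 pairs on that log2 scale with its standard error. A change of 1 is thus a 2-fold difference.

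FOXL2 is a forkhead transcription factor of ovarian granulosa cells, the somatic cells that surround the oocyte. It is required for the maintenance of granulosa cell identity, and in its absence SOX9 and other genes of Sertoli cells, the supporting cells of the testis, become expressed in the ovary. It acts on steroid production, on follistatin and the activin pathway, and together with the estrogen receptors. Small interfering RNA lowers the amount of its target's messenger RNA, so the treatment labels make a prediction for the Foxl2 signal itself.

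Foxl2 did not settle the labels. Its gene-level signal was 13.46, 13.02, 12.94 and 12.77 on the arrays labelled control siRNA and 13.41, 13.40, 13.13 and 12.97 on those labelled FOXL2 siRNA, where the order within each set is vehicle replicates 1 and 2 and then E2 replicates 1 and 2, as in every list of 8 values below. The 2 sets overlapped, and the change was 0.18 ± 0.07 (95% interval 0.01 to 0.34, adjusted p = 0.119 in limma with Benjamini-Hochberg adjustment). Without the vehicle replicate 1 pair it was 0.25 and was called higher (adjusted p = 0.0386). The array carries 2 probes for the gene and they disagreed. The bright probe, which sets the gene-level value, read 14.46, 14.01, 13.94 and 13.76 with control siRNA and 14.41, 14.40, 14.12 and 13.96 with FOXL2 siRNA, which is 113% of control (adjusted p = 0.126 over all 31521 probes that passed the same filter). The dim probe read 7.01, 6.60, 6.77 and 6.36 with control siRNA and 5.83, 5.48, 6.04 and 5.51 with FOXL2 siRNA. Those sets did not overlap, and the dim probe fell to 51.1% of control (change -0.97 ± 0.13, adjusted p = 0.00275). Which part of the transcript each probe reads was not examined here. Because 1 probe bears the label out and the brighter one does not, the groups are named below by their labels, and "higher" and "lower" always mean the arrays labelled FOXL2 siRNA relative to those labelled control siRNA.

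The treatment labels are also in doubt. For all 38 genes whose knockdown effect differed between treatments at an adjusted p under 0.05 (limma on the 4 group means), E2 and vehicle arrays differed in opposite directions with the 2 siRNAs, and for 37 of them the E2 arrays were lower with control siRNA and higher with FOXL2 siRNA. These genes were selected by that difference, so the opposite signs are a description. Greb1, a gene widely used as a readout of estrogen receptor activity and named here after its values were seen, read 14.74, 14.61, 13.76 and 13.59 on the arrays labelled control siRNA and 13.07, 12.26, 14.36 and 13.86 on those labelled FOXL2 siRNA. Its E2 arrays were thus below the vehicle arrays with control siRNA and above them with FOXL2 siRNA, although the difference of its knockdown effects was 2.45 and was not called (adjusted p = 0.0619). Over the 15645 genes tested, the E2 effects with the 2 siRNAs, which share no array, had a Pearson correlation of -0.18 and a Spearman correlation of -0.074, given as a description. Whether the treatment labels of any arrays are exchanged was not tested, and they are used below as given. The change over both treatments is the mean of 4 arrays minus the mean of 4 others, so its size does not depend on which of the control arrays received E2. Its error does, and with the treatment labels of the control arrays exchanged in the pairing, an alternative chosen after seeing the data, 4066 genes were called, 3280 of them also called with the labels as given.

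After scaling, 15645 of the 24232 genes with an Entrez identifier had a median signal of at least 10 and were tested. Between 51.4% and 55.6% of the probes on each array lay well above background, and no spot was saturated. At an adjusted p under 0.05, 3469 genes were called, 22.2% of those tested. Of these, 1818 were higher (11.6% of all genes) and 1651 were lower (10.6% of all genes). The median change was 0.47 among the genes called higher and -0.41 among those called lower, beside -0.003 over all genes tested. A change of at least 1.5-fold was reached by 1201 called genes (7.68% of those tested), of which 669 were higher and 532 lower. At least 2-fold changes numbered 271 upward and 235 downward. The 2 sets of 4 arrays did not overlap for 3263 genes (20.9%), and 2552 of them were among the called genes. When the treatments were compared, the knockdown effect differed between E2 and vehicle for 38 genes (0.243% of those tested), of which 3 were among the 3469, and for 332 (229 more positive and 103 more negative with E2) with an additive replicate block. The effect with E2 was the more positive one for 37 of the 38 and the more negative one for 1. With 2 arrays a group, a difference between treatments is estimated with less precision than their average. The call depends on the pairing of the arrays: without the pairs as a block, 1967 genes were called, 1867 of them the same genes. Leaving out the vehicle replicate 2 pair left 1844 calls and leaving out the E2 replicate 2 pair 1973.

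**Figure D1:**
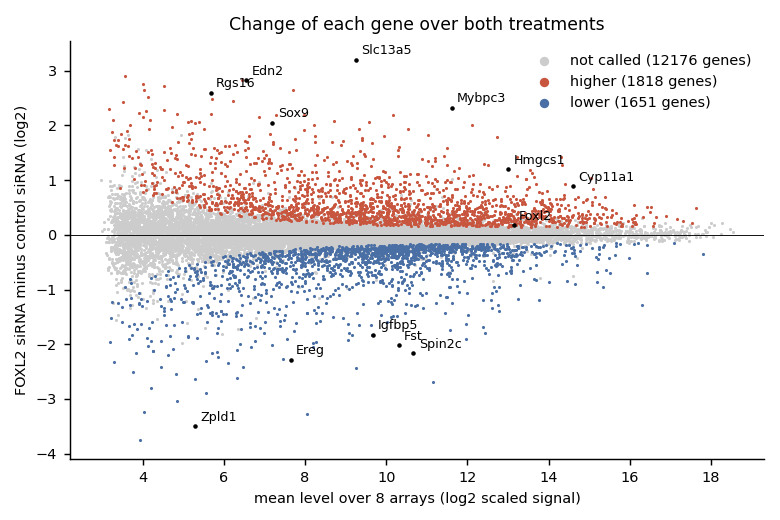
Each point is 1 of the 15645 genes tested, with its mean level over the 8 arrays on the horizontal axis and its change, FOXL2 siRNA minus control siRNA, on the vertical axis, both on the log2 scale. Red points are the 1818 genes called higher and blue points the 1651 called lower, and smaller changes were called among bright genes than among dim ones.

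A rule on size, separation and signal picked 20 genes in each direction. Slc13a5, a plasma membrane citrate transporter, had the largest rise of the 20: its levels were 7.61, 6.88, 8.20 and 7.92 on the arrays labelled control siRNA and 11.39, 10.98, 10.58 and 10.46 on those labelled FOXL2 siRNA. The sets did not overlap and the change was 3.20 ± 0.29 (adjusted p = 0.000556). Edn2, which encodes the vasoconstrictor endothelin 2 made by granulosa cells near ovulation, read 4.98, 5.61, 4.80 and 5.17 on the arrays labelled control siRNA and 8.09, 7.81, 8.01 and 7.95 on those labelled FOXL2 siRNA. It rose by 2.82 ± 0.17 (adjusted p = 0.00019). Robo4, a receptor for SLIT guidance proteins better known from endothelium, had the smallest error of the 20, with pair differences of 2.28, 2.24, 2.10 and 2.17 and a change of 2.20 ± 0.05 (adjusted p = 1.3e-05). Other genes of the 20 that were measured on all 8 arrays were Acer1 (2.83), an alkaline ceramidase, Smpx (2.65), a small muscle protein, Rgs16 (2.60), a regulator of G protein signaling, and Plxna4 (2.45), a semaphorin receptor. Mybpc3 (2.33), the cardiac myosin-binding protein C, Sowahd (2.21), Vgf (2.19), a neuropeptide precursor, and Smpd3 (2.19), a neutral sphingomyelinase, completed that group. Vgf was not called in limma without the pairing (adjusted p = 0.0729). It also lost its call in 7 of the 12 settings that left out a pair or an array.

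The remaining genes of the 20 that rose had little or no control signal. Gata1, a zinc-finger factor of blood cells and of Sertoli cells, was well above background on all 4 arrays labelled FOXL2 siRNA and on none of the others. Its levels were 2.63, 2.34, 1.92 and 1.51 on the arrays labelled control siRNA and 4.91, 5.50, 4.69 and 4.94 on those labelled FOXL2 siRNA, which makes it at least 2.61-fold higher. Here and below, "at least" sets the mean of the bright arrays against the lowest signal that counts as well above background on each dim array. Levels of such genes on the dim arrays were not measured, so the bound is given without a p-value. By the same measure the sphingosine 1-phosphate receptor S1pr5 was at least 3.19-fold higher and Asb12, an ankyrin repeat and SOCS box protein, at least 3.3-fold higher. Gnb3, a G protein beta subunit, was at least 2.81-fold higher, and Gprin3 at least 2.61-fold. Nkain3 (2.72), Nat8l (2.48), the enzyme of N-acetylaspartate synthesis, and Afap1l2 (2.28), an actin filament associated adaptor, were measured on 2 of the 4 arrays labelled control siRNA and on all 4 of the others. Col17a1 (2.20), a transmembrane collagen of hemidesmosomes, was measured on 1 of the 4.

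Among the 20 that fell, Rgs2, a regulator of G protein signaling induced by gonadotropins, read 10.30, 10.58, 10.32 and 10.67 on the arrays labelled control siRNA and 8.29, 7.93, 8.16 and 7.78 on those labelled FOXL2 siRNA, a change of -2.43 ± 0.14 (adjusted p = 0.000176). Ereg, the EGF-like growth factor epiregulin, read 8.30, 9.45, 8.05 and 9.34 on the arrays labelled control siRNA and 6.31, 7.06, 5.73 and 6.91 on those labelled FOXL2 siRNA, and its pair differences of -1.98, -2.39, -2.32 and -2.43 were nearly equal (change -2.28 ± 0.10, adjusted p = 9.99e-05). No array of the second set reached the first for either gene. Itga2 (-2.62), the collagen-binding integrin alpha 2, Lzts1 (-2.41), Krt23 (-2.34), a type I keratin, Trpa1 (-2.31), an irritant-gated ion channel, Cdo1 (-2.27), the cysteine dioxygenase of taurine synthesis, and Spin2c (-2.16), a spindlin, were also measured on all 8 arrays.

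For 5 genes of the 20 that fell, signal was lost on every array labelled FOXL2 siRNA. Adam2, a sperm surface metalloprotease-like protein, was at least 5.24-fold lower. Prdm6, a zinc-finger repressor of smooth muscle, was at least 4.16-fold lower. Grpr, the receptor for gastrin-releasing peptide, was at least 3.92-fold lower. The neuronal transmembrane protein Slitrk6 was at least 2.7-fold lower. The liprin Ppfia2, seen on 3 of 4 arrays labelled control siRNA, was at least 1.83-fold lower and was not called without the vehicle replicate 2 pair. Zpld1 (-3.49), a zona pellucida-like domain protein, and Ackr3 (-2.89) and Ackr4 (-2.20), scavenging chemokine receptors, remained well above background on 2 of the 4 arrays labelled FOXL2 siRNA. Ackr3 lost its call in 6 of the 12 settings that left out a pair or an array, and Ackr4 in 2. Pcdh8 (-3.04), a protocadherin, and Luzp4 (-2.80) did so on 1 of the 4.

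The genes of gonadal fate were grouped in lists of testis and ovary genes. The counts of this and every list below are to be read beside the shares over all genes tested, 11.6% called higher and 10.6% lower. In the Sertoli and testis list, 9 of 17 tested members were called higher and 1 lower, with a median change of 0.52. Sox9, the transcription factor that directs Sertoli cell differentiation, read 5.67, 5.88, 6.42 and 6.70 on the arrays labelled control siRNA and 8.39, 8.47, 7.72 and 8.28 on those labelled FOXL2 siRNA, a change of 2.05 ± 0.25 (adjusted p = 0.00166). Its relative Sox8 read 5.36, 5.28, 6.02 and 6.01 on the arrays labelled control siRNA and 7.70, 7.37, 7.37 and 7.09 on those labelled FOXL2 siRNA and changed by 1.72 ± 0.22 (adjusted p = 0.00197). Dhh, the hedgehog ligand that Sertoli cells secrete, read 11.06, 11.10, 11.28 and 11.56 on the arrays labelled control siRNA and 12.33, 12.51, 11.99 and 12.32 on those labelled FOXL2 siRNA and changed by 1.04 ± 0.12 (adjusted p = 0.0015). In all 3 genes the lowest array labelled FOXL2 siRNA lay above the highest labelled control siRNA. Gata1, described above, belongs to the same list, as do Ptgds (0.69), the prostaglandin D synthase that amplifies Sox9, Rhox5 (0.68), a homeobox gene of Sertoli cells, Aard (0.67), Trf (0.52), transferrin, and Tesc (0.41). These 5 calls were less stable than those of Sox9, Sox8, Dhh and Gata1, which were kept under all settings that left out a pair or an array: of those 12 settings Rhox5 lost its call in 12, Aard in 11, Ptgds in 8, Tesc in 7 and Trf in 6. Aard, Ptgds and Tesc were also not called without the pairing. Dmrt1, which keeps Sertoli cells from turning into granulosa cells, was the exception and fell (change -0.48 ± 0.13, adjusted p = 0.0359), a call that was lost without the pairing and without any of 3 pairs (adjusted p 0.0695 without the pairing, and 0.0874, 0.0962 and 0.117 without vehicle replicate 1, vehicle replicate 2 and E2 replicate 2). Cldn11 (0.59), a Sertoli tight junction claudin, Fgf9 (0.27), the growth factor of the testis pathway, Cyp26b1 (0.33) and Clu (0.17) were not called. Cldn11, Fgf9 and Cyp26b1 were called higher in 2 of the 11 settings that kept all arrays, and Clu in none. Those 2 were the additive replicate block and the pairing with the treatment labels of the control arrays exchanged.

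Of the ovarian fate list, 1 of 13 tested members were called higher and 5 lower (median change -0.07). Fst, which encodes the activin-binding protein follistatin, read 11.36, 11.33, 11.34 and 11.22 on the arrays labelled control siRNA and 9.33, 9.36, 9.58 and 8.91 on those labelled FOXL2 siRNA, and its change of -2.02 ± 0.09 (adjusted p = 9.99e-05) was the largest fall in the list. Bmp2 read 8.93, 8.59, 7.61 and 7.51 on the arrays labelled control siRNA and 6.75, 5.94, 7.69 and 5.95 on those labelled FOXL2 siRNA. It fell by 1.58 (adjusted p = 0.0302), but its E2 replicate 1 pair did not move in that direction, and it was no longer called without the vehicle replicate 1, vehicle replicate 2 or E2 replicate 2 pair (adjusted p 0.0955, 0.112 and 0.101). Esr2 (-0.46), the estrogen receptor of granulosa cells, Runx1 (-0.31), and Wnt4 (-0.30), the ovarian WNT ligand, fell by smaller amounts. Wnt4 levels of the 2 sets overlapped, at 12.90, 12.33, 12.66 and 12.42 on the arrays labelled control siRNA and 12.63, 11.87, 12.51 and 12.08 on those labelled FOXL2 siRNA, and its call comes from the differences within pairs, -0.27, -0.46, -0.14 and -0.34. Wnt4 was not called without the pairing (adjusted p = 0.393), nor without the vehicle replicate 2 pair or the E2 replicate 2 pair (adjusted p 0.0513 and 0.0579). Rspo1, the secreted activator of WNT signaling in the ovary, was the list's single rise, at 7.20, 6.50, 7.48 and 6.92 on the arrays labelled control siRNA and 9.002, 8.86, 8.96 and 8.90 on those labelled FOXL2 siRNA (change 1.91 ± 0.14, adjusted p = 0.000278). Esr1 (-0.03), Ctnnb1 (-0.01), Irx3 (-0.09) and Nr2f2 (0.03) were not called.

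**Figure D2:**
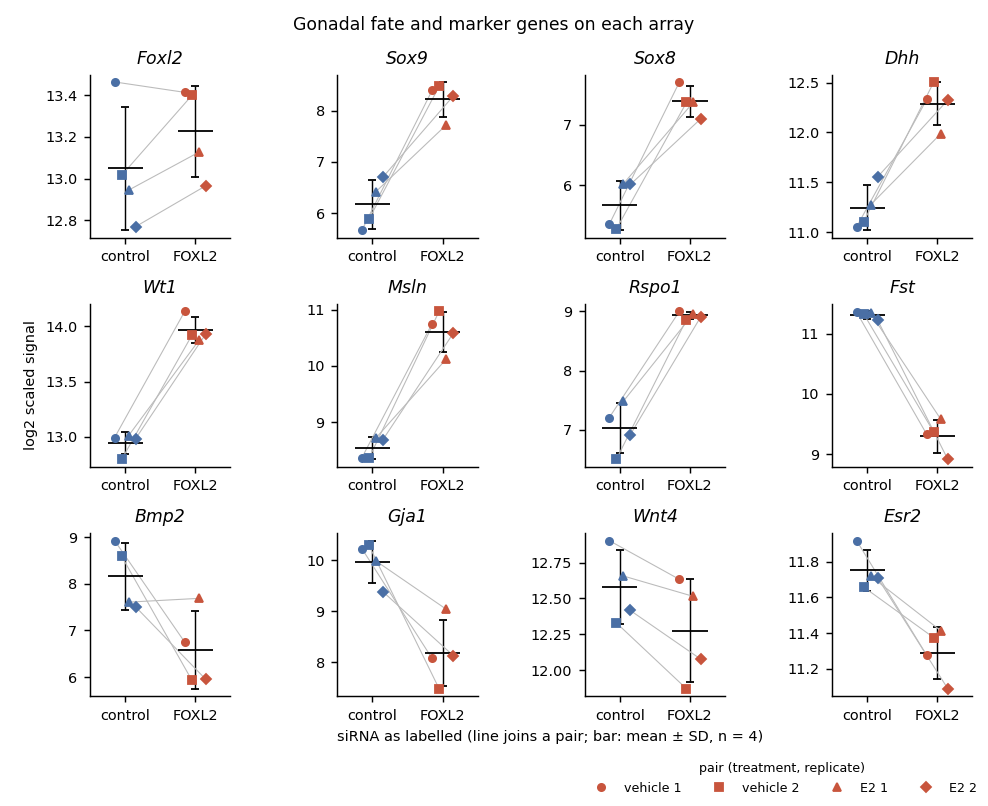
Log2 scaled signal on each of the 8 arrays for 12 genes, with the 4 arrays labelled control siRNA in blue and the 4 labelled FOXL2 siRNA in red; lines join the arrays of a pair and bars show the mean and SD. Sox9, Sox8, Dhh, Wt1, Msln and Rspo1 lay higher without overlap, Fst, Gja1 and Esr2 lower without overlap, while Foxl2, Wnt4 and Bmp2 overlapped between the sets.

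Markers of granulosa cells gave both directions: 3 of 11 tested members were called higher and 2 lower (median -0.03). Wt1, a zinc-finger factor of gonadal somatic cells, read 12.99, 12.79, 13.01 and 12.98 on the arrays labelled control siRNA and 14.14, 13.92, 13.87 and 13.93 on those labelled FOXL2 siRNA and rose by 1.02 ± 0.06 (adjusted p = 0.000172). Inhbb (0.80), the inhibin beta B subunit, and Amhr2 (0.41), the receptor for anti-Müllerian hormone, also rose. Gja1, which encodes the gap junction protein connexin 43, read 10.23, 10.30, 9.99 and 9.38 on the arrays labelled control siRNA and 8.07, 7.48, 9.04 and 8.13 on those labelled FOXL2 siRNA and fell by 1.80 (SE 0.27, adjusted p = 0.00513). Nr5a1 (-0.10), the orphan receptor SF-1, Inha (0.12), Inhba (-0.04) and Kitl (-0.03) were not called, and neither was Cyp19a1 (-0.75), the aromatase gene, which was measured on 4 arrays labelled control siRNA and on 2 of the others. Fshr and Amh, which encode the FSH receptor and anti-Müllerian hormone, 2 usual markers of growing follicles, were well above background on none of the 8 arrays. The summed signal of the 13 markers ran from 147800 to 156500 with control siRNA and from 175200 to 196000 with FOXL2 siRNA. Amhr2, Inha and Inhba were the brightest of them, with median signals of 50700, 40400 and 23100 over the 8 arrays. Amhr2 lost its call without the pairing and in 9 of the 12 settings that left out a pair or an array. In such bulk RNA, a change in the share of a cell type and a change in RNA per cell cannot be told apart.

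The other cell types that such cultures may hold were followed by their markers. Of the 6 markers of the ovarian surface epithelium, 5 were called higher and none lower (median change 0.76). Msln, the mesothelial surface protein mesothelin, read 8.37, 8.36, 8.72 and 8.69 on the arrays labelled control siRNA and 10.75, 10.97, 10.12 and 10.58 on those labelled FOXL2 siRNA and rose by 2.07 ± 0.18 (adjusted p = 0.000524), and Upk3b, a uroplakin of mesothelium, read 7.62, 7.16, 8.08 and 7.38 on the arrays labelled control siRNA and 9.37, 8.78, 9.22 and 8.74 on those labelled FOXL2 siRNA and rose by 1.47 ± 0.11 (adjusted p = 0.000297). Krt18 (0.47) and Krt8 (0.29) are keratins that gonadal supporting cells also express, and Krt19 (0.83) was measured on 3 of 4 arrays labelled control siRNA and on all 4 of the others. Krt7 (0.68) was not called. The summed signal of the 6 markers was 17770 to 20010 with control siRNA and 25710 to 28350 with FOXL2 siRNA, without overlap. Most of that sum came from Krt18 and Krt8, with median signals of 17000 and 4840 over the 8 arrays. Msln had 767 and Upk3b 349, so the sum says little about them. The markers called in this list moved with the siRNA label, and their part in the other changes reported here was not tested.

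Oocyte RNA was scarce: 7 of 9 oocyte markers, among them Zp1, Zp2, Zp3 and Bmp15, were well above background on none of the 8 arrays. Gdf9 was well above background on all 8 (median signal 97.1) and Ddx4 on 7 (33.7). The summed signal of the list was 122.4 to 171.7 with control siRNA and 143.8 to 190.5 with FOXL2 siRNA. Of the 2 members that passed the filter, 0 were called. In the macrophage list, the leukocyte markers Ptprc, C1qa and Tyrobp were well above background on none of the 8 arrays. Csf1r, Cd68 and Cd14 were so on all 8 (median signals 367, 118 and 80.4). Csf1r (0.34) was the call in 5 tested, and the summed signal was 559.4 to 620.2 against 606.3 to 734.1. In the endothelium list, Cdh5, Tek, Vwf and Emcn were well above background on none of the 8 arrays. Kdr and Pecam1 were so on all 8 (median signals 1590 and 47). Kdr (0.36) was called of 2 tested, and the summed signal was 1143 to 1835 against 1611 to 1971. In the smooth muscle and stroma list, Myh11, Pdgfra and Tcf21 were well above background on none of the 8 arrays. Dcn, Acta2 and Cnn1 were so on all 8 (median signals 7650, 7250 and 271). Dcn (0.31) and Des (0.92), the latter measured on 2 of 4 arrays labelled control siRNA, were called of 4 tested. The summed signal was 13090 to 18530 against 16540 to 17460. In the theca list, the LH receptor gene Lhcgr was well above background on no array, and Cyp17a1 (0.62) was called of 3 tested. The summed signal was 3858 to 4877 with control siRNA and 5720 to 6682 with FOXL2 siRNA, without overlap. Most of that sum came from Cyp17a1 and Star, with median signals of 2820 and 2330 over the 8 arrays.

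Steroid synthesis genes split evenly: 5 of 20 tested members were called higher and 5 lower (median 0.004). Cyp11a1, which makes pregnenolone from cholesterol in mitochondria, read 14.19, 14.30, 14.02 and 14.12 on the arrays labelled control siRNA and 15.06, 15.13, 15.02 and 14.98 on those labelled FOXL2 siRNA and rose by 0.89 ± 0.05 (adjusted p = 0.00014). Fdxr (0.50), the ferredoxin reductase that passes electrons to it, Cyp17a1, the enzyme of androgen synthesis, Hsd17b7 (0.71) and Srd5a1 (0.36), a 5-alpha reductase, rose as well. Hsd17b1, which makes estradiol from estrone in granulosa cells, read 11.01, 10.77, 11.06 and 10.76 on the arrays labelled control siRNA and 9.66, 9.15, 9.80 and 9.09 on those labelled FOXL2 siRNA and changed by -1.47 ± 0.08 (adjusted p = 0.000162). Hsd3b6 (-1.05) and Hsd3b1 (-0.69), which make progesterone from pregnenolone, Akr1c18 (-0.97), which inactivates progesterone, and Hsd17b4 (-0.42) fell with it. Star (0.47), the cholesterol carrier of steroid-producing mitochondria, and Scarb1 (0.22), the HDL receptor, were not called. Star was called higher in 5 of the 11 settings that kept all arrays, and Scarb1 in 2. Without the pairing, Cyp17a1, Srd5a1 and Akr1c18 were not called. These 3 genes lost the call in 10, 12 and 8 of the 12 settings that left out a pair or an array.

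Nuclear receptors showed few large changes: 4 of 31 tested members were called higher and 6 lower (median 0.001). Pparg, a lipid-sensing receptor of granulosa cells, stood out at 12.96, 12.94, 12.98 and 12.80 on the arrays labelled control siRNA and 11.06, 10.69, 11.46 and 10.82 on those labelled FOXL2 siRNA (change -1.91 ± 0.11, adjusted p = 0.000172). The circadian repressors Nr1d1 (-0.94) and Nr1d2 (-0.45), and Rxra (-0.38) and Rarg (-0.38), receptors of the retinoid system, were lower. Vdr (0.71), the vitamin D receptor, Nr3c1 (0.41), the glucocorticoid receptor, and Nr5a2 (0.35), the granulosa cell receptor LRH-1, were higher.

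Gonadotropin and cAMP signaling genes were more often lower: 2 of 25 tested members were called higher and 6 lower (median -0.12). Pde4b (-1.08), Pde3b (-0.98) and Pde7a (-0.70), phosphodiesterases that break down cAMP, and Prkar2b (-0.72) and Prkar2a (-0.48), regulatory subunits of protein kinase A, fell. Crem (-0.49), a cAMP-responsive transcription factor, fell too. Akap12 (1.31), a scaffold for protein kinase A, and Adcy6 (0.32), an adenylyl cyclase, rose. RGS proteins shorten G protein signals, and of this family 2 of 12 members were higher and 5 lower. Rgs16 read 4.84, 4.19, 4.07 and 4.41 on the arrays labelled control siRNA and 7.15, 7.14, 6.56 and 7.05 on those labelled FOXL2 siRNA, against which Rgs4 read 7.37, 7.46, 8.11 and 7.87 on the arrays labelled control siRNA and 5.93, 5.81, 5.56 and 5.27 on those labelled FOXL2 siRNA and changed by -2.06 ± 0.21 (adjusted p = 0.000937). Rgs3 (1.02) rose, and Rgs6 (-0.67), Rgs10 (-0.43) and Rgs19 (-0.19) fell. Rgs16 and Rgs2 thus changed in opposite directions by similar amounts.

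Among ligands, receptors and antagonists of the activin and TGF-beta branch, 6 of 31 tested members were called higher and 4 lower (median 0.09). Tgfb2 (1.27), a TGF-beta ligand, Inhbb and Fstl1 (0.54), a follistatin-like glycoprotein, rose, as did Smad7 (0.36), an intracellular inhibitor. Besides Fst, Acvr1b (-0.76), the activin type I receptor, Tgif1 (-0.41) and Smad3 (-0.19), the transducer of the pathway, fell. The Smad3 call was lost in 5 of the 11 settings that kept all arrays, among them the fit without the pairing. It was also lost in 11 of the 12 settings that left out a pair or an array, beside 0 for Acvr1b and Tgif1. In the BMP branch, 5 of 29 tested members were called higher and 10 lower, and the median of -0.20 lay below that of all genes. Of the secreted antagonists, Grem1 read 13.20, 12.10, 13.41 and 12.47 on the arrays labelled control siRNA and 11.58, 10.74, 12.002 and 10.32 on those labelled FOXL2 siRNA and changed by -1.63 ± 0.12 (adjusted p = 0.00033). Of the BMP receptors, Bmpr1b (-1.30), Bmpr2 (-0.62) and Bmpr1a (-0.48) fell. Id3 (-0.82), a target gene of BMP signaling, and Smad6 (-0.39), its inhibitor, were lower. Id1, of the same family as Id3, was not called (-0.15, adjusted p = 0.6 in the same fit). Its differences within pairs were -0.737 and -0.515 with vehicle and 0.314 and 0.319 with E2, as labelled. The ligands divided, with Bmp2 and Bmp6 (-0.88) lower, and Bmp4 (0.79), Gdf15 (0.88) and Bmp7 (0.77) higher along with Bmp1 (0.33) and Bmper (0.23), Bmp7 having been measured on 2 of 4 arrays labelled control siRNA.

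EGF-like growth factors carry the ovulatory signal from the outer granulosa cells to the cumulus cells around the oocyte. In this list, 3 of 12 tested members were called higher and 3 lower (median -0.06). Besides Ereg, Btc (-0.97), betacellulin, and Egfr (-0.88), their receptor, fell, while Nrg1 (0.96), Nrg2 (0.80) and Egf (0.66) rose. Of the genes of ovulation and the cumulus matrix, 4 of 13 tested members were called higher and 3 lower (median 0.08). Adamts1, a protease of the cumulus matrix, read 10.24, 10.22, 10.08 and 10.20 on the arrays labelled control siRNA and 11.56, 11.62, 11.47 and 11.62 on those labelled FOXL2 siRNA and rose by 1.39 ± 0.05 (adjusted p = 4.59e-05), and Pappa (0.89), a protease that frees insulin-like growth factor, and Cd44 (0.79), the hyaluronan receptor, rose too. Ptgs2, the inducible cyclooxygenase, read 10.05, 10.70, 10.19 and 10.74 on the arrays labelled control siRNA and 8.76, 9.47, 8.77 and 9.70 on those labelled FOXL2 siRNA and changed by -1.25 ± 0.07 (adjusted p = 0.000172). Has2 (-1.10), the hyaluronan synthase, and Cebpb (-0.56), a transcription factor of the ovulatory response, fell with it. Tnfaip6 (0.13), Ptx3 (0.08) and Vcan (-0.17) of the cumulus matrix were not called.

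Prostaglandin genes were called in both directions: 4 of 15 tested members were called higher and 5 lower (median -0.06). Along with Ptgs2, Pla2g4a (-0.47), the phospholipase that releases arachidonic acid, and Ptger2 (-1.50), the prostaglandin E2 receptor of cumulus cells, fell, as did Ptger3 (-2.09), which stayed above background on 2 of 4 arrays labelled FOXL2 siRNA. Ptgis (0.59) and Ptges (0.44), synthases of prostacyclin and prostaglandin E2, and Slco2a1 (0.62), a prostaglandin transporter, rose, and the exporter Abcc4 (-0.29) fell.

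Cholesterol synthesis gave the highest share of called genes among the lists with at least 10 tested members. All 24 listed genes were tested, 18 of them (75%) were called higher and none lower, against 11.6% and 10.6% over all genes, and the median change was 0.48 beside -0.003. Hmgcs1, which makes HMG-CoA at the start of the pathway, read 12.48, 12.30, 12.34 and 12.53 on the arrays labelled control siRNA and 13.59, 13.68, 13.40 and 13.79 on those labelled FOXL2 siRNA and rose by 1.20 ± 0.06 (adjusted p = 0.000145). Its promoter window holds the letters TCACCCCAC, a sterol response element of the kind bound by the SREBP factors, in capitals in the following sequence from RefSeq (GRCm38.p6, plus strand, chr13:119690174-119690262), read 5′ to 3′.
Hmgcs1: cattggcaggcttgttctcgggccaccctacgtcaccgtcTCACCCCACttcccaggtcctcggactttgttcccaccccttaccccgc
The motif TCACNCCAC was searched on both strands in windows from 250 bases before to 50 bases after each start. It was found in 1.36% of the 11594 tested genes that had a window and in 1 of the 16 such cholesterol genes (6.25%). The letters are thus not common in the list at this stringency.

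**Figure D3:**
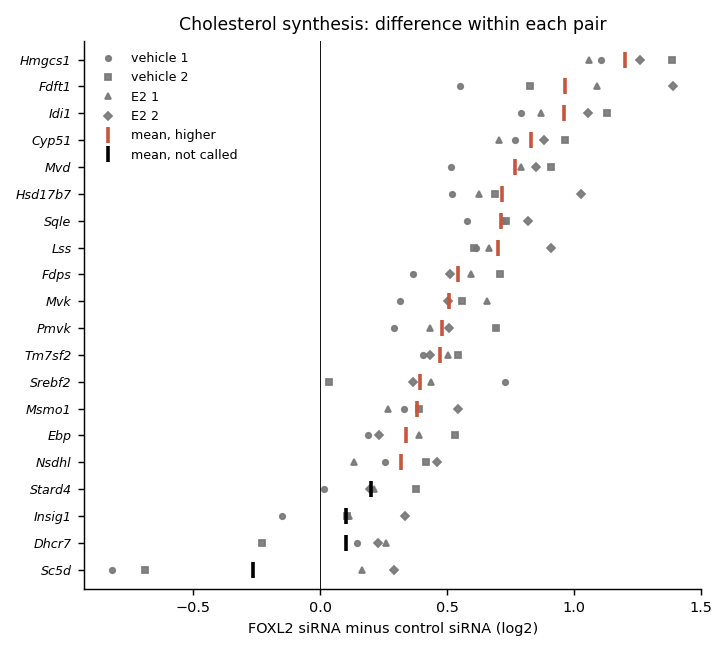
Difference between the FOXL2 siRNA and the control siRNA array of each of the 4 pairs (grey symbols) and their mean (bar, red where called higher) for 20 of the 24 cholesterol synthesis genes, on the log2 scale. All 4 pairs lay above 0 for the 16 genes drawn that were called higher, from Hmgcs1 at 1.20 to Nsdhl at 0.32.

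Genes of every stage of the pathway were among the 18, and some are not named here. Mvk (0.51), Pmvk (0.48) and Mvd (0.77) activate mevalonate. Idi1 (0.96) and Fdps (0.54) build the isoprenoid chain. Fdft1, which makes squalene, read 11.16, 11.31, 10.97 and 11.05 on the arrays labelled control siRNA and 11.71, 12.14, 12.06 and 12.44 on those labelled FOXL2 siRNA and rose by 0.97 ± 0.12 (adjusted p = 0.00224). Sqle (0.71) and Lss (0.70) close the sterol ring, and Cyp51 (0.83), Tm7sf2 (0.47), Msmo1 (0.38), Nsdhl (0.32), Hsd17b7 and Ebp (0.34) help turn lanosterol into cholesterol. Srebf2 (0.39), the transcription factor of the pathway, also rose. Insig1 (0.10), the sterol sensor partner, Stard4 (0.20), Dhcr7 (0.10) and Sc5d (-0.26) were among the 6 members not called, whose changes ran from -1.34 to 0.20. Without the pairing, 13 of the 24 were called higher and none lower.

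Fatty acid synthesis genes gave 5 higher and 1 lower of 15 (median 0.11). Scd1 (0.65) and Fads2 (0.41), desaturases, Me1 (0.65), malic enzyme, Acly (0.26), which makes cytosolic acetyl-CoA, and Elovl5 (0.22) rose, Acacb (-0.50) fell, and Fasn (0.20) and Srebf1 (0.16) were not called. Of the PPAR and lipid storage genes, 3 of 26 tested members were called higher and 6 lower (median -0.05). With Pparg itself, Plin4 (-0.88) and Plin5 (-1.33), coat proteins of lipid droplets, Dgat2 (-0.40), a triglyceride synthase, and Angptl4 (-0.38) and Acsl1 (-0.37), targets of PPAR receptors, fell. Plin5 was measured on 3 of 4 arrays labelled FOXL2 siRNA. Slc27a6 (1.51) and Fabp3 (1.15), which import and carry fatty acids, and Acsl4 (0.41) rose. The Pparg promoter window contains a forkhead core, ATAAACA on the opposite strand, and is shown with that of Col6a1, Col3a1, Rgs3 and Pde4b, called genes whose windows hold such a core in capitals (RefSeq, GRCm38.p6; Pparg chr6:115421906-115421992 plus strand, Col6a1 chr10:76726209-76726294 minus strand, Col3a1 chr1:45311382-45311468 plus strand, Rgs3 chr4:62559708-62559794 plus strand, Pde4b chr4:102569998-102570059 plus strand).
Pparg: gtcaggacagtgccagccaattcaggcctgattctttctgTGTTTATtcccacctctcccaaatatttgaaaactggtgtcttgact
Col6a1: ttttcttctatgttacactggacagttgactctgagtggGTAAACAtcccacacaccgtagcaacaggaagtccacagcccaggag
Col3a1: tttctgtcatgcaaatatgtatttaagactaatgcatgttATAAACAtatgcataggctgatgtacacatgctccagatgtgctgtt
Rgs3: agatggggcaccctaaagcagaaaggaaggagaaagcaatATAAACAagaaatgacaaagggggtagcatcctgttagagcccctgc
Pde4b: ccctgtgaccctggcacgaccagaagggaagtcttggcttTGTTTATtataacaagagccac
The letters GTAAACA or ATAAACA, on either strand, stood in the windows of 5.72% of the 1346 genes called higher that had a window, 6.76% of the 1273 called lower and 6.04% of the 8975 not called. They were about as common in called as in uncalled genes, and a match is a description of the sequence, not a bound site.

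The interferon response list gave 15 genes called higher and none lower of 35 (median 0.17). Ifit2, which blocks translation of viral RNA, read 10.87, 9.16, 10.94 and 9.41 on the arrays labelled control siRNA and 11.79, 10.46, 11.47 and 10.41 on those labelled FOXL2 siRNA. Replicate 1 arrays were more than 1 unit above replicate 2 arrays in every group, so the sets overlapped, but the difference within each pair was positive, at 0.92, 1.29, 0.53 and 1.002 (change 0.94 ± 0.11, adjusted p = 0.00166). Oas2, a sensor of double-stranded RNA, showed the same arrangement at 12.88, 11.65, 12.83 and 11.88 on the arrays labelled control siRNA and 13.65, 12.46, 13.34 and 12.33 on those labelled FOXL2 siRNA, with a change of 0.63 ± 0.07 (adjusted p = 0.00128). Irf5 (0.88), an interferon regulatory factor, Rsad2 (0.47), the antiviral enzyme viperin, Ifit3 (0.46), Ifit1 (0.44), Mx1 (0.40), Isg15 (0.34), a ubiquitin-like modifier, and Gbp2 (0.32) rose. The signal transducers Stat2 (0.43) and Irf9 (0.20), and Ifi44 (0.30), Xaf1 (0.20) and Oas1a (0.18), rose as well, and so did the chemokine Cxcl10. Irf7 (0.20), Ifih1 (0.17), Mx2 (0.003) and Tlr3 (0.29) were not called. These calls rest on the pairing, since without it none of the 35 was called.

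**Figure D4:**
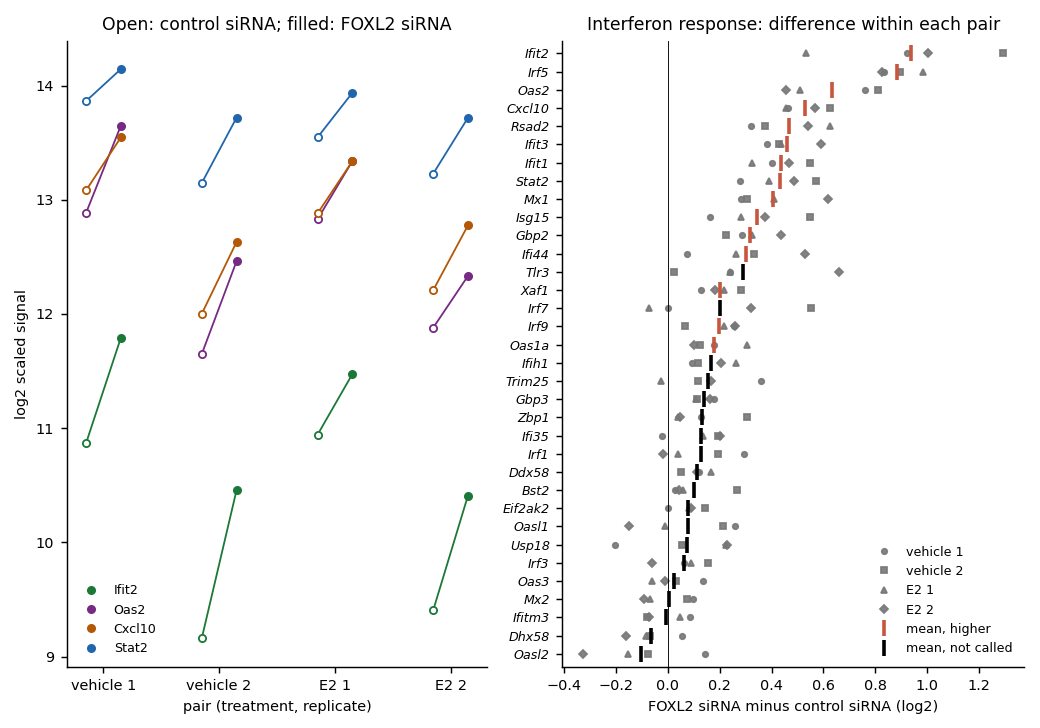
Left, log2 scaled signal of Ifit2, Oas2, Cxcl10 and Stat2 in each pair, with open circles for control siRNA and filled circles for FOXL2 siRNA. Right, the difference within each of the 4 pairs (grey) and their mean (red where called higher, black where not) for 34 of the 35 interferon response genes tested; levels of replicate 1 exceeded those of replicate 2, and all 4 differences were above 0 for the 4 genes on the left.

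Promoters of such genes can carry the interferon-stimulated response element, in which a GAAA and a second GAAA are separated by 2 bases. It was searched on both strands, where the other strand reads TTTC, and was found in the windows of 15 of the 28 list members that had a window (53.6%), in 8 of the 13 called ones, and in 3.67% of the 11594 tested genes with a window. The matches upstream of the start are in capitals in the promoters of Ifit1 (chr19:34640745-34640853, plus strand), Ifit3 (chr19:34583333-34583456, plus strand), Isg15 (chr4:156200835-156200936, minus strand), Oas1a (chr5:120907526-120907585, minus strand), Cxcl10 (chr5:92349053-92349139, minus strand), Rsad2 (chr12:26456523-26456612, minus strand) and Gbp2 (chr3:142620564-142620653, plus strand), from RefSeq on GRCm38.p6.
Ifit1: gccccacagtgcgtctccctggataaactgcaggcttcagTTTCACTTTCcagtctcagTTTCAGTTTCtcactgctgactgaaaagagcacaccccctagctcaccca
Ifit3: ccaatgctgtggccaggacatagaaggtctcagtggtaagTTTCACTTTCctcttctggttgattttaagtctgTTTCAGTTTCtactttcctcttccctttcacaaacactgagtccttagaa
Isg15: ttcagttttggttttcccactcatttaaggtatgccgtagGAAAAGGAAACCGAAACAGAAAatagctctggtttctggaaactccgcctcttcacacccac
Oas1a: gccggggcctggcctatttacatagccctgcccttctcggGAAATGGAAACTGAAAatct
Cxcl10: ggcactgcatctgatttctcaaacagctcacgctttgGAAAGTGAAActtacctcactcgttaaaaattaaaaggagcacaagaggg
Rsad2: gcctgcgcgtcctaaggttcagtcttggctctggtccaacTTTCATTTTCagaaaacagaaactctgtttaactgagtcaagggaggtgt
Gbp2: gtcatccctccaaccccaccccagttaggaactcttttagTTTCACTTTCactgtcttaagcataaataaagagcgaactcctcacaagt
Ifit1 and Ifit3 carry 2 matches each, and the 3 matches of Isg15 overlap in 1 run.

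Antigen presentation genes gave 1 call in each direction of 14 (7.14% each, median 0.12), below the shares over all genes. Tapbp (0.28), which loads class I molecules, rose, and H2-Ab1 (-0.68), a class II chain, fell. Chemokines, cytokines and NF-kB genes were called in both directions: 9 of 40 tested members were called higher and 12 lower (median 0.03). Cxcl12 (1.60), a chemokine of stem cell niches, read 9.67, 11.55, 9.61 and 12.001 on the arrays labelled control siRNA and 11.54, 13.33, 11.05 and 13.29 on those labelled FOXL2 siRNA, a call that needs the pairing (adjusted p = 0.229 without it), and its scavenger Ackr3 fell. Ccl17 (1.82), Csf1 (1.27), the macrophage growth factor, Cx3cl1 (1.06) and Il18 (0.79) rose, as did Ccl7 (1.93), measured on 1 of 4 arrays labelled control siRNA and on all 4 of the others. Cxcl1 (-1.45), Cxcl5 (-1.43), Il6 (-0.90) and Il7 (-1.46) fell. Tnfaip3 (-0.97), Traf1 (-0.80) and Nfkb1 (-0.30), targets and components of the NF-kB pathway, fell too.

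Matrix genes made up several of the lists with many calls. Of the fibrillar and other collagens, 8 of 15 tested members were called higher and 3 lower (median 0.37). Col6a1 and Col6a2, neighbouring genes whose chains assemble into the same beaded filament, read 8.62, 8.42, 8.26 and 8.16 on the arrays labelled control siRNA and 10.31, 9.77, 10.79 and 10.31 on those labelled FOXL2 siRNA and 4.48, 4.40, 4.14 and 4.07 on the arrays labelled control siRNA and 6.48, 5.72, 6.94 and 6.15 on those labelled FOXL2 siRNA. They rose by 1.93 ± 0.18 and 2.05 ± 0.24. Col1a1 (1.10), Col3a1 (0.75), Col5a1 (0.37) and Col5a2 (0.82), chains of fibrils, rose, whereas Col10a1 (-1.79), Col27a1 (-1.12) and Col12a1 (-0.59) fell. Col1a2 (0.28), the partner chain of Col1a1, was not called. In basement membrane genes, 9 of 22 tested members were called higher and 2 lower (median 0.28). Col4a5 (0.98), Col4a6 (1.01), Col4a1 (0.39) and Col4a2 (0.52), collagen IV chains, Lama4 (0.70), a laminin chain, Hspg2 (0.62), perlecan, Nid1 (0.42), nidogen, and Agrn (0.30), agrin, rose. Lama1 (-0.87) and Frem2 (-1.29) fell. Follicles are enclosed by such a membrane, made in part by granulosa cells.

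Proteoglycan and elastic matrix genes moved in both directions in equal number, 11 higher and 11 lower of 38 (median -0.01). Ccn4 (1.93), Ccn2 (1.04) and Ccn1 (0.57), matricellular proteins, Fbln2 (1.21), Tnxb (0.75), and the cross-linking enzymes Loxl1 (0.63) and Loxl2 (0.36) rose. Mgp (-1.44), matrix Gla protein, Omd (-1.43) and Lum (-0.57), leucine-rich proteoglycans, Efemp2 (-1.18), Thbs1 (-1.17) and Loxl3 (-0.90) fell. Of the integrins, 3 were higher and 5 lower of 14, with the laminin-binding Itga7 (1.17), Itga6 (0.70) and Itga3 (0.47) higher, and Itga2, Itgb3 (-1.09), Itga9 (-0.99), Itga11 (-0.81) and Itgb5 (-0.70) lower. Among proteases and inhibitors, 11 of 39 tested members were called higher and 6 lower (median 0.06). The metalloprotease inhibitors Timp3 (1.79), Timp1 (0.93) and Timp2 (0.58), and Adam33 (1.32) rose, and Serpine2 (-1.42), Pcsk5 (-1.44), Plat (-0.85), tissue plasminogen activator, Adamts10 (-0.63), Ctsl (-0.34) and Mmp14 (-0.25) fell.

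Axon guidance genes are expressed by many migrating or layered cells. In the list of semaphorins, SLITs, netrins, ephrins and their receptors, 23 of 57 tested members were called higher and 9 lower, which is 40.4% and 15.8% of those tested, and the median was 0.29. Of the plexins, semaphorin receptors, Plxna4 read 5.36, 4.38, 5.65 and 4.65 on the arrays labelled control siRNA and 8.01, 7.13, 7.79 and 6.91 on those labelled FOXL2 siRNA, and Plxnd1 (0.70) and Plxnb1 (0.58) were called higher too, whereas Plxna1 (0.06), Plxna2 (-0.07), Plxna3 (-0.20), Plxnb2 (0.15) and Plxnc1 (0.22) were not called. Nrp1 (1.09), which binds both semaphorins and VEGF, rose, and Nrp2 (-0.49) fell. Sema3f (0.83), Sema3e (0.57), Sema3b (0.44) and Sema3c (0.30), secreted semaphorins, rose, and membrane-bound ones went both ways, with Sema6c (0.49), Sema4b (0.45), Sema6d (0.35) and Sema4c (0.32) higher and Sema4f (-1.01), Sema4d (-0.66) and Sema5a (-0.61) lower. Of the receptors for SLIT, Robo4 and Robo3 (0.58) rose while Robo1 (-0.54) and Robo2 (-0.80) fell, and of the ligands Slit3 (0.92) rose and Slit1 (-0.77) fell. Efnb1 (1.29) and Efnb2 (0.79), ephrin ligands, Epha1 (0.88) and Epha2 (0.55), ephrin receptors, were higher, and the ligand Efna4 (-0.66) and the receptor Epha4 (-0.89) were lower.

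Cadherins and protocadherins were split, 4 higher and 3 lower of 16. Cdh3 (1.71), P-cadherin, read 8.19, 7.74, 8.43 and 7.95 on the arrays labelled control siRNA and 9.97, 9.64, 9.82 and 9.71 on those labelled FOXL2 siRNA. Cdh2 (0.65), the N-cadherin of granulosa cells, and the desmosomal Dsg2 (0.57) and Dsc2 (0.47) rose, and Pcdh18 (-1.24) and Pcdh7 (-1.19) fell with Pcdh8. Of claudins, connexins and junction genes, 7 of 25 tested members were called higher and 3 lower (median 0.21). Jam2 (1.56), Cldn15 (0.81) and Cldn12 (0.55) rose, and Cldn3 (2.16) did so with signal above background on 3 of 4 arrays labelled FOXL2 siRNA and on 1 of the others. Connexin 43, given above as Gja1, Nectin1 (-0.60) and Pkp2 (-0.30) fell. The heparan sulfate list had 3 higher and 5 lower of 27, and its 2 sulfatases, which trim heparan sulfate outside the cell, diverged: Sulf1 (0.92) was higher and Sulf2 (-0.69) lower. Ndst1 (-0.56), Ndst4 (-1.06), Gpc2 (-0.50) and Sdc1 (-0.30), syndecan 1, were lower, and Ndst2 (0.23) and Gpc1 (0.30), a glypican, were higher.

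Insulin-like growth factor and insulin genes had 8 calls in each direction of 24 (median 0.004). The binding proteins diverged. Igfbp2 read 12.23, 12.93, 12.04 and 12.86 on the arrays labelled control siRNA and 13.57, 14.36, 13.53 and 14.28 on those labelled FOXL2 siRNA and rose by 1.42 ± 0.05 (adjusted p = 3.96e-05). Igfbp5 read 10.98, 10.02, 10.996 and 10.32 on the arrays labelled control siRNA and 9.49, 7.85, 9.75 and 7.91 on those labelled FOXL2 siRNA and changed by -1.83 ± 0.19 (adjusted p = 0.000879, and 0.0512 without the pairing). Igfbp4 (-1.22) fell and was measured on 3 of 4 arrays labelled FOXL2 siRNA. Pappa and Stc2 (0.92), a protease of binding proteins and its inhibitor, rose together. Igf1 (-0.55), the ligand of granulosa cells, Insr (-0.50), Irs1 (-0.87), Irs2 (-0.50) and Pik3r1 (-0.89), which carry the insulin signal, and Foxo1 (-0.83), the forkhead factor that it restrains, fell. Igf1r (0.62) and Akt2 (0.35) rose, although only 2 of the 4 well-measured Akt2 probes did.

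In the WNT list, 8 of 39 tested members were called higher and 8 lower (median 0.05). Wnt6 (1.34), Wnt5b (0.42) and Wnt5a (0.28), WNT ligands, Fzd4 (0.72), the receptor used in corpus luteum formation, Fzd5 (0.57) and Rnf43 (0.55) rose with Rspo1. Fzd8 (-0.55), Fzd3 (-0.34), Sfrp4 (-0.42), Dkk3 (-0.30), Ccn5 (-0.70) and Tcf7l1 (-0.46) fell. The inhibitor Dkk2 was at least 2.43-fold lower, with signal above background on the 4 arrays labelled control siRNA alone, and was not called without the pairing. Axin2 (0.68), a target gene of the pathway, was not called. Of the FGF list, 4 of 25 tested members were called higher and 4 lower (median 0.05). Fgf18 read 9.48, 9.40, 9.48 and 9.75 on the arrays labelled control siRNA and 11.05, 11.22, 11.08 and 11.14 on those labelled FOXL2 siRNA and rose by 1.60 ± 0.08 (adjusted p = 0.000112). Spry1 (1.40), a feedback inhibitor of FGF receptors, and Fgfr3 (0.93) rose, as did Fgf1 (1.63), measured on 2 of 4 arrays labelled control siRNA. Fgfr2 (-0.66), Fgfrl1 (-0.40), Fgf5 (-0.33) and Etv4 (-0.32) fell.

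Notch genes gave 2 higher and 1 lower of 20 (10% and 5%), no more than the 11.6% and 10.6% over all genes. The ligand Jag1 (1.07) and the modifier Lfng (1.22) were higher and Rbpj (-0.37), the transcription factor of the pathway, lower. Hedgehog genes gave 2 higher and 1 lower of 12 (16.7% and 8.33%), near the shares over all genes. With Dhh, its co-receptor Cdon (0.58) rose and the transducer Smo (-0.46) fell, while Ptch1 (0.02), a target gene of hedgehog signaling, was not called. Angiopoietin and VEGF genes gave 6 higher and 5 lower of 19 (median -0.09). Vegfa (0.61), the main angiogenic factor of the follicle, Pdgfc (1.08), Pdgfa (0.75) and Pdgfb (0.24) rose. Angpt1 (-0.87) and Angpt2 (-2.23), ligands of the receptor Tie2, and Vegfd (-0.84) fell, Angpt2 with signal on 2 of 4 arrays labelled FOXL2 siRNA. In the retinoic acid list, 5 of 15 tested members were called higher and 3 lower (median 0.33). Stra6 (1.10), the cellular importer of retinol, Adh7 (0.84), Adh1 (0.63), Aldh1a1 (0.48) and Aldh1a7 (0.73) rose, while Rdh10 (-1.21), which makes retinaldehyde, and Dhrs3 (-0.63), which reverses that step, fell.

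**Figure D5:**
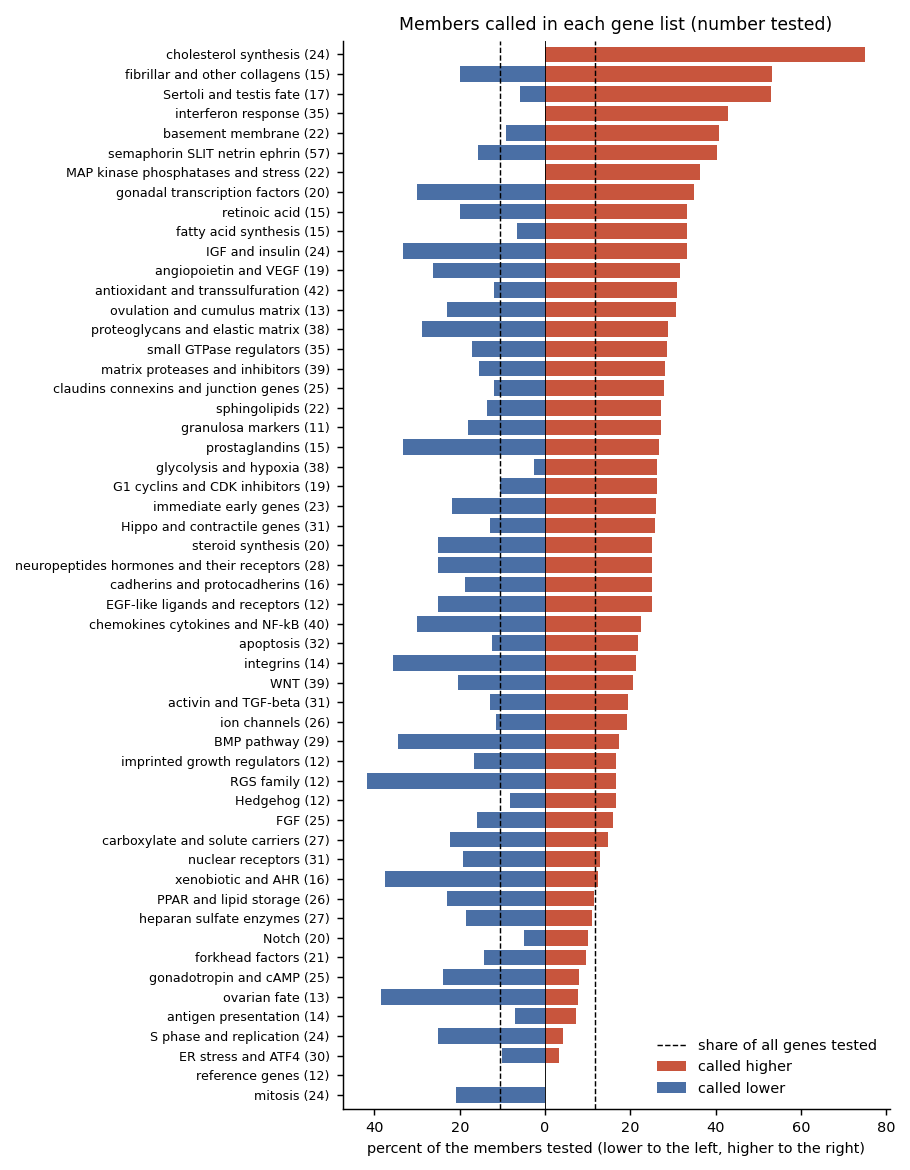
Share of the tested members of each gene list that was called higher (red, to the right) or lower (blue, to the left), for the lists with at least 10 tested members, whose number stands in brackets. Dashed lines mark the shares over all genes tested, 11.6% higher and 10.6% lower; cholesterol synthesis reached 75% higher, and reference genes had no call.

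The cell cycle lists were lower on balance by small amounts. Of the mitosis genes, 0 were higher and 5 lower of 24 (median -0.09), with Foxm1 (-0.56), a forkhead factor that drives mitotic genes, Kif11 (-0.50), Mybl2 (-0.40), Cenpa (-0.26) and Ube2c (-0.22) called. Of S phase and replication genes, 1 of 24 tested members were called higher and 6 lower (median -0.11). Cdc45 (-0.48), a replication helicase subunit, Ccne1 (-0.27), cyclin E1, Gins2 (-0.26), Tk1 (-0.25), Slbp (-0.30) and E2f1 (-0.19) fell, and Rrm1 (0.34) rose. In contrast, 5 of 19 G1 cyclins and inhibitors rose and 2 fell. Ccnd1, cyclin D1, read 6.45, 6.61, 6.21 and 7.07 on the arrays labelled control siRNA and 7.93, 8.81, 7.35 and 8.59 on those labelled FOXL2 siRNA and rose by 1.58 ± 0.16 (adjusted p = 0.000896). Ccnd2 (0.88), the cyclin of granulosa cell proliferation, and Ccnd3 (0.48) rose, and so did Cdkn2b (1.03) and Cdkn2a (0.80), which inhibit the kinases of these cyclins. Rb1 (-0.43), their substrate, and Ccng1 (-0.24) fell. All 3 D-type cyclins were thus higher. Most falls of replication and mitosis genes were less stable under the 12 settings that left out a pair or an array. Tk1 and E2f1 lost their call in 12 of them, Ccne1, Gins2, Slbp and Ube2c in 11, and Cdc45 and Cenpa in 10. Mybl2 lost it in 7, Kif11 in 2 and Foxm1 in 0, beside 3 for Ccnd1 and 0 for Ccnd2 and Ccnd3. Without the pairing, Cdc45, Ccne1, Gins2, Slbp, E2f1 and Ube2c were not called.

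Apoptosis genes gave 7 higher and 4 lower of 32 (median 0.09). Bik (1.62), a BH3-only killer protein, Tnfsf10 (0.73), the death ligand TRAIL, Casp12 (0.67), Birc2 (0.39), a caspase inhibitor, Apaf1 (0.33), which activates caspases, and Bak1 (0.22) rose. Mcl1 (-0.58), a survival protein, Casp6 (-0.58), Bad (-0.23) and Tnfrsf1a (-0.37) fell, Tnfrsf1a by 1 of its 2 well-measured probes. MAP kinase phosphatases and stress genes had 8 members called higher and none lower of 22 (median 0.19). Gadd45g (1.42) and Gadd45b (0.89), stress sensors, Dusp10 (1.15), Dusp14 (0.76) and Dusp8 (0.34), phosphatases of stress kinases, and Map3k1 (0.78) and Mapk14 (0.37), kinases of that cascade, rose. Immediate early genes were divided, 6 higher and 5 lower of 23. Fos (-1.41), Egr1 (-0.63) and Klf2 (-0.56) fell, as did Egr2 (-1.17), measured on 3 of 4 arrays labelled FOXL2 siRNA, while Jun (0.53), Jund (0.28), Klf4 (0.87), Klf6 (0.47), Klf10 (0.51) and Btg2 (0.52) rose, and Maff (-0.35) fell. Fos and Jun, whose products pair as AP-1, therefore moved in opposite directions. In the Hippo and contractile list, 8 of 31 tested members were called higher and 4 lower (median 0.14). Ankrd1 (0.64), Ccn1 and Ccn2, target genes of the coactivator YAP, rose, whereas Yap1 (-0.23) itself and Sav1 (-0.96), a Hippo scaffold, fell. The DNA-binding partners diverged, with Tead1 (0.72) and Vgll3 (0.79) higher and Tead2 (-0.73) and Vgll4 (-0.45) lower.

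Other transcription factors were examined by family. Of the forkhead genes, 2 were higher and 3 lower of 21 (9.52% and 14.3%), near the shares over all genes. Foxs1 (1.55) and Foxo6 (0.77) were higher, Foxo1, Foxm1 and Foxp1 (-0.36) lower, and Foxo3 (0.04) not called. Of the gonadal transcription factors, 7 of 20 tested members were called higher and 6 lower (median -0.03). Gata4 (0.47), a factor of gonadal somatic cells, Gata3 (0.97), Zfpm1 (0.63), a partner of GATA factors, and Emx2 (0.55) rose with Wt1. Cited1, a transcriptional coactivator, read 9.77, 9.71, 10.34 and 10.23 on the arrays labelled control siRNA and 8.33, 8.23, 8.12 and 7.69 on those labelled FOXL2 siRNA and changed by -1.92 ± 0.19 (adjusted p = 0.000724). Six4 (-0.71), Cited2 (-0.49) and Cbx2 (-0.39), a polycomb protein of testis determination, fell. Gata6 (-0.11) was not called.

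Metabolic and protective genes differed by list. Of glycolysis and hypoxia genes, 10 of 38 tested members were called higher and 1 lower (median 0.02). Slc16a3 (1.15), the lactate exporter, Hk2 (0.84), hexokinase 2, Aldoc (0.92), Aldoa (0.28), Gpi1 (0.20), Tpi1 (0.16), Pfkfb4 (0.36) and Ddit4 (0.44), an inhibitor of mTOR, rose, and Bnip3 (-0.25) fell. Of antioxidant and transsulfuration genes, 13 of 42 tested members were called higher and 5 lower (median 0.03). Of 7 mu-class glutathione transferases tested, 6 were called higher and none lower. Gstm1 read 12.96, 13.24, 12.71 and 13.24 on the arrays labelled control siRNA and 14.02, 14.33, 13.94 and 14.33 on those labelled FOXL2 siRNA and rose by 1.12 ± 0.05 (adjusted p = 9.99e-05), and Gstm2 (1.28), Gstm6 (1.53) and Gstm7 (0.94) rose by similar amounts, though probes of such similar genes can bind each other's transcripts. Hmox1 (0.58), heme oxygenase, Txnrd1 (0.47), Nfe2l2 (0.37), the regulator of antioxidant genes, and Gstt1 (0.53) rose. Gclc (-0.30) and Gclm (-0.30), which make glutathione, Cth (-0.54), which supplies its cysteine, Mgst1 (-0.37) and Srxn1 (-0.58) fell. Of xenobiotic and aryl hydrocarbon receptor genes, 2 of 16 tested members were called higher and 6 lower (median -0.08). Ahr (-0.92), the receptor, Cyp1b1 (-0.36), its target, Cyp2s1 (-1.31), Cyp2j6 (-0.31) and Ephx2 (-0.95) fell, and Cyp39a1 (0.76) and, by 1 of its 3 well-measured probes, Cyp2u1 (0.33) rose. ER stress and ATF4 genes had 1 higher and 3 lower of 30 (3.33% and 10%, median -0.03), no more than over all genes. Ddit3 (0.38), the stress factor CHOP, was higher and Vldlr (-1.10) and Herpud1 (-0.27) lower.

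Sphingolipid genes were called higher in 6 and lower in 3 of 22 members (median 0.12). Smpd3 read 5.77, 6.38, 6.21 and 6.35 on the arrays labelled control siRNA and 8.16, 8.32, 8.49 and 8.52 on those labelled FOXL2 siRNA. Acer1, Sphk1 (0.69), which makes sphingosine 1-phosphate, Spns2 (1.17), which exports it, and Cers6 (0.90) rose. Of its receptors, S1pr5 appeared as described, while S1pr1 (-1.23) and S1pr2 (-0.30) fell, as did Cers5 (-0.92), a ceramide synthase. Carboxylate and solute carriers gave 4 higher and 6 lower of 27: besides Slc13a5 and Slc16a3, Slc16a6 (0.45) and Slc1a4 (0.35) rose, and Slc8a1 (-1.003), a sodium and calcium exchanger, Slc40a1 (-0.86), the iron exporter, Slc2a12 (-0.62) and Slc1a5 (-0.32) fell. Slc6a15, a neutral amino acid carrier, was at least 3.3-fold lower. Ion channels gave 5 higher and 3 lower of 26 (median 0.14), with Scn3b (0.62), Kcnmb4 (0.56), Cacnb3 (0.22) and P2rx4 (0.38) higher, and Trpc6 (-1.11) and Cacna2d1 (-0.51) lower.

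Neuropeptides, hormones and their receptors were equally split, with 7 calls in each direction of 28 (median -0.24). The adenosine receptors Adora1 (1.70) and Adora2b (1.51), and Edn1 (0.82), endothelin 1, rose with Edn2 and Vgf. Ramp1 (-1.47) and Ramp2 (-1.49), which direct calcitonin-family receptors, Bdnf (-1.13), a neurotrophin that granulosa cells secrete, Ace (-0.92) and Ghr (-0.57) fell, and so did Htr1d (-1.17), measured on 3 of 4 arrays labelled FOXL2 siRNA. Of the small GTPase regulators, 10 rose and 6 fell of 35 (median 0.10). Rasl10a (1.38), Rasgrp3 (1.30), an exchange factor for Ras, Rnd1 (0.97) and Rnd3 (0.80), small GTPases, and Plekhg4 (1.28) rose, and Rasef (-1.22), Arhgap28 (-0.98), Diras1 (-0.88), Dock4 (-0.70) and Arhgef7 (-0.61) fell. Imprinted growth regulators gave 2 in each direction of 12, Plagl1 (0.59) and Peg3 (0.90), the latter measured on 3 of 4 arrays labelled control siRNA, against Ndn (-0.24) and Sgce (-0.20). None of the 12 reference genes was called, and their median change was 0.02, with Actb (0.21) and Gapdh (0.13) among them. At an unadjusted p under 0.05, 5566 of all genes tested passed.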

How the data were processed

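Labelled RNA of each culture was hybridized to 1 of 8 arrays on a single mouse 8 x 60K slide (one-colour Cy3, design on mm9). The deposited scanner files hold spot intensity with background subtracted by Agilent Feature Extraction 11.5.1.1, and the authors' value table holds log2 signal after scaling to the 75th percentile in Genespring and averaging of transcripts by gene.

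From the scanner intensities, 3671 control spots and 42 probes marked non-uniform were left out, array signals were divided by their 75th percentiles (275.1 to 367.5) and multiplied by the mean of these, 321.7, and the 33295 probes paired with an Entrez gene were averaged by gene on the linear scale. Symbols came from RefSeq. Genes with a median of at least 10 were fitted on the log2 scale in limma 3.58.1 (R 4.3.3, moderated variance with intensity trend), with the 4 treatment-by-replicate pairs as a block. P-values are two-sided and Benjamini-Hochberg adjusted over all 15645 genes. Pairs follow the treatment and replicate number in the labels, as the study paired arrays in its other experiment. The labels do not say what a number stands for, but the replicate differences of the 4 groups correlated pairwise at 0.329 to 0.445 over genes. The difference between treatments was fitted on the 4 group means. Per the labels each replicate used a pool of 5 mice, and there are 2 replicate numbers. Vehicle and E2 pairs of the same number may thus come from the same pool, whereas the fit counts the 4 pairs as independent. Standard errors, intervals and adjusted p-values may therefore be too small, which was not tested. The number of arrays limits the precision, and with a single slide and scan there was no batch of slide or scan to test. Differences between replicate numbers are taken up by the pairs.

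The comparison, the 60 lists (1569 distinct genes, 1565 on the array, 1238 tested) and the naming rules were chosen with earlier results of these data known. Named were Foxl2, the 20 largest non-overlapping called changes in each direction with signal on at least 3 of the 4 higher arrays, and within lists up to 5 members a direction and defining members; further members were named after their values were seen, and some genes that the rules named are not reported here. Of 366 such genes with 2 or more probes, none had called probes in both directions. Promoter windows came from RefSeq for 11594 tested genes. Scripts were tested on simulated data. Alternatives were the block, normexp background correction (on median spot signal, not the planned mean signal, which was not used here), quantile and median scaling, filters, the brightest probe, no intensity trend, the authors' table, and leaving out each pair or array.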

Additional observations from a re-analysis of the deposited data

Results flagged for a closer look

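Of the genes named above that were called over both treatments, 2 had a knockdown effect that differed between treatments in the test of that difference (limma on the 4 group means, 38 of 15645 genes called). Id1, named above but not called over both treatments, was also among the 38. Cyp2s1, a cytochrome P450, read 12.12, 12.20, 10.63 and 10.53 on the arrays labelled control siRNA and 9.87, 9.94, 10.25 and 10.20 on those labelled FOXL2 siRNA. Its differences within pairs were -2.25, -2.26, -0.38 and -0.33, so it was lower in all 4 pairs, but by less with E2, and the effect with E2 minus that with vehicle was 1.90 (adjusted p = 0.00301). Plekhg4, a guanine nucleotide exchange factor, read 7.15, 7.16, 7.99 and 8.12 on the arrays labelled control siRNA and 9.40, 9.21, 8.46 and 8.48 on those labelled FOXL2 siRNA, with differences within pairs of 2.26, 2.05, 0.46 and 0.37. It was higher in all 4 pairs, by less with E2, and the difference of the effects was -1.74 (adjusted p = 0.0147). Both genes are among the 38 in which E2 and vehicle arrays differed in opposite directions with the 2 siRNAs, so what is said of E2 here rests on treatment labels that the report leaves in doubt. Plekhg4 is the single gene of the 38 with a negative difference. Leaving out single arrays reduced the 38 calls to between 4 and 10. Groups of 2 arrays are too small to mark an array as standing apart.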

How the results depend on the processing

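With the array pairing left out (no replicate block, 4 group means), 1967 genes were called in place of 3469, and with an additive replicate block 4327. Without the intensity trend 2305 were called. The count stayed within 1.5 times under normexp (3268), quantile scaling (3584), median subtraction (3603), no filter (2673), signal on all 8 arrays (3451), the brightest probe (3436) and the authors' table (3553), and, in an alternative chosen after seeing the data, with the treatment labels of the control arrays exchanged in the pairing (4066). Leaving out a pair or, without pairing, an array gave 1181 to 2976. For the difference between treatments, the replicate block gave 332 genes, no filter 9, and leaving out an array 4 to 10. Over 529 named genes and 11 settings that kept all arrays, 5378 of 5783 values kept their call, 382 lost it, 23 gained it and none reversed; 142 of the losses came from leaving out the pairing. Over 12 settings without a pair or array, 4312 of 6348 kept it, 2021 lost it, 10 gained it and 5 reversed, for Mx1 (-0.1655 to 0.9731) and Oas1a (-0.0006396 to 0.3538), all 5 in the unpaired fit. Where all arrays of a group lie near background, signal allows only a bound.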

Other observations

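Some gene families outside the lists, chosen after their values were seen, were examined, and the calls of several were in a single direction. Over all genes tested, 11.6% were called higher and 10.6% lower. Of 13 small nucleolar RNA host genes (Snhg), which carry guide RNAs for ribosome maturation in their introns, 6 were lower and none higher, among them Snhg12 (-0.52) and Snhg1 (-0.45). Of 8 Abcb transporters, 5 were lower, led by the mitochondrial Abcb10 (-0.82), and of 8 carbohydrate sulfotransferases (Chst), 4 were lower, led by Chst15 (-0.90). Of 9 Prdm zinc-finger proteins, 4 were lower, among them Prdm4 (-0.27), while Prdm6 was well above background on all 4 arrays labelled control siRNA and on none of the others. Serine protease inhibitors were higher in 5 of 12 Serpina and 5 of 11 Serpinb genes, such as Serpina9 (1.36) and Serpinb9 (0.64). Of 15 Klf factors, 6 were higher and 2 lower, and of 38 proteasome genes (Psm), 1 was higher and 6 lower. The 23 Ndufa and Ndufb genes of respiratory complex I had no call (median change 0.027), and 74 ribosomal protein genes had 6 lower and none higher (median -0.002), which is below the shares over all genes.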
